A study of Mus musculus with 10 samples.

Results

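The libraries described are the 6 from fetal ovarian germ cells of mice that the labels call fertile, out of 10 libraries in the series, and they were taken by genotype and without any contrast. Genes were ranked by their median TPM over these 6 libraries. TPM, a transcript abundance, divides a gene's reads by its length and scales each library to the same total, so that levels of different genes can be set side by side within a library. It is a share of the RNA sequenced, not a number of molecules per cell.

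Of the fertile libraries 4 were heterozygous for a mutation in Taf4b and the other two were wildtype. The remaining 4 libraries of the series were Taf4b-deficient, a genotype the labels call infertile, and they serve here only as libraries that had no part in choosing genes. All 10 came from the gonads of C57BL/6 embryos at embryonic day E14.5, whose parents carried an Oct4-EGFP transgene (Pou5f1tm2Jae) on both copies and the Taf4b mutation on 1. The gonads were dissociated with trypsin, dead cells were marked with propidium iodide, and GFP-positive cells were sorted for total RNA. The reporter marks cells in which the Oct4 (Pou5f1) promoter is active, and cells without GFP were gated out. Whether cells that had already silenced the promoter were among those gated out was not tested. The labels give 3 litter dates: heterozygous replicates 1 to 3 date from March 7, heterozygous replicate 4 and wildtype replicate 1 from January 29, and wildtype replicate 2 from March 1. Nothing in the labels ties a library to an animal of its own, and p-values therefore measure only the spread between these samples, which may be technical.

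Female germ cells in the fetal mouse ovary stop dividing by mitosis and begin meiosis in the days around this age. Pluripotency factors inherited from primordial germ cells are then switched off. Retinoic acid and bone morphogenetic protein signalling induce Stra8, which opens the meiotic programme of chromosome axis, pairing and recombination proteins. Growth of the oocyte, with its egg coat and maternal-effect genes, follows only after birth.

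The fertile libraries held from 28949924 to 44166320 counted reads, and from 15686 to 16671 genes reached 1 TPM in each. No pair of them matched within sampling noise; heterozygous replicates 2 and 4 were the closest, with a chi-square of 11.8 for each degree of freedom. Heterozygous replicate 3 stood apart in ribosomal RNA-like and mitochondrial genes, with values given beside them. Taf4b, the gene the study mutated, stood at 49.8 TPM in the lowest fertile library, at a median of 77.8 and at 91.3 in the highest, against 19.6, 21.2 and 21.4 TPM as the lowest, median and highest of the deficient libraries. The 2 ranges did not overlap, and gene-level values do not resolve the mutated exons. The log2 difference of Taf4b, deficient minus fertile, was -1.64 in edgeR's quasi-likelihood test, with an SE of 0.16 and an adjusted p of 0.0117. It was the 1 gene called of 20317 tested (0.00492%), and 875 genes stood at an unadjusted p under 0.05. The adjusted p of Taf4b lay between 0.059 and 0.125 without any 1 of the deficient libraries, at 0.0753 without wildtype replicate 2, at 0.0665 with litter date as a term, at 0.0522 with the replicate number as a block, and between 0.0588 and 0.151 in limma. Markers fixed for the sorted cell type were high in every fertile library: the lowest value of any of Dazl, Ddx4, Stra8 and Sycp3 was the 127 TPM of Sycp3 in heterozygous replicate 1. None of these 4 genes was called between deficient and fertile libraries (adjusted p from 0.962 to 0.991 in edgeR) or between heterozygous and wildtype (0.867 to 0.992).

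The promoters of 4 genes of different level are shown, so that sequence can be read beside the values. Dazl and Sycp3 are germline genes at high level, Stra8 is the gate to meiosis, and Prm1, a sperm protamine, was listed at 0 in 4 of the 6 libraries with a highest value of 0.324 TPM. Each line gives the 250 bases before the start of the gene from RefSeq on GRCm38.p6, 5′ to 3′ on the gene's own strand, with CpG dinucleotides in capitals. Dazl lies on the minus strand at chr17:50293621-50293870 and Sycp3 on the plus strand at chr10:88459337-88459586. Stra8 lies on the plus strand at chr6:34920698-34920947 and Prm1 on the minus strand at chr16:10796824-10797073.
Dazl: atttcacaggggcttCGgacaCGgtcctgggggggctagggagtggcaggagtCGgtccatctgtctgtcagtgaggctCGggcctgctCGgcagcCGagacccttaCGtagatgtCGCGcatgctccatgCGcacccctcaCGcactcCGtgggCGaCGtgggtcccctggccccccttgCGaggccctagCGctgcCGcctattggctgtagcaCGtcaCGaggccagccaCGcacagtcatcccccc
Sycp3: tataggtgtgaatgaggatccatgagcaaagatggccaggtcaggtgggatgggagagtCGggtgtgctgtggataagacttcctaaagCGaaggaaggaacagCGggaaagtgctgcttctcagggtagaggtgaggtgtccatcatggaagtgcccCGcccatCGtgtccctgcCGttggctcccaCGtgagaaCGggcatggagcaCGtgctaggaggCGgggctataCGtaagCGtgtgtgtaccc
Stra8: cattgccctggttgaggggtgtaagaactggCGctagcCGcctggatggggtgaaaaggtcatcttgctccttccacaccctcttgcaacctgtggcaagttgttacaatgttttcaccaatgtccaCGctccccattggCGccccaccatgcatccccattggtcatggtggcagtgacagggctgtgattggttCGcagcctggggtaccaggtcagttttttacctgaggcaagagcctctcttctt
Prm1: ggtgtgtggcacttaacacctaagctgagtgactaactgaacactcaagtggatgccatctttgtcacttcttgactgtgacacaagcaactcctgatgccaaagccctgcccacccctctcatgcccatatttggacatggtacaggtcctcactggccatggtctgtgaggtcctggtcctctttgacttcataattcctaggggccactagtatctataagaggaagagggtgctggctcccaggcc
The Dazl window holds 20 CpG dinucleotides, that of Sycp3 12, that of Stra8 5 and that of Prm1 0. RefSeq windows could be matched for 16943 of 21979 nuclear protein-coding genes (77.1%), and the matched windows had a median of 10 CpG. Among genes with a median of at least 100 TPM the match was 1584 of 1908 (83%), with a median of 18 CpG per window. The lists of meiotic chromosome genes (47 of 58 matched, 81.0%) had a median of 13 CpG, and the lists of germline RNA and piRNA genes (35 of 43, 81.4%) one of 15. Absent genes matched in 73.1% and variable genes in 79.5%, and no values are given for them. Since the match over all genes is also under 80%, the values over 16943 windows describe those windows and not all genes. Both strands were searched for exact letters: the CCAAT box, the GC box (letters GGGCGG), the E-box of palindromic form (letters CACGTG) and the nuclear receptor half-site (letters AGGTCA). The Dazl window holds a CCAAT box, and the Sycp3 window holds the GC box, the E-box and the half-site. The Stra8 window holds a CCAAT box and the half-site, and the Prm1 window none of them. CACGTG was found in 10 of the 35 germline RNA and piRNA promoters (28.6%), in 14.9% of those of meiotic chromosome genes, in 10.5% of those of genes at 100 TPM or more and in 6.79% of all matched promoters. GGGCGG was found in 44% of all matched promoters, CCAAT in 36.3% and AGGTCA in 12.4%. These are matches of letters and say nothing of what binds there.

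Of 55536 genes listed, 16182 (29.1%) had a median of at least 1 TPM, the level called expressed here. The number was 9445 at 10 TPM, 2105 at 100 TPM and 97 at 1000 TPM. Among protein-coding genes 12442 of 22028 were expressed (56.5%), against 362 of 5854 long intergenic noncoding RNAs (6.18%) and 1805 of 9941 processed pseudogenes (18.2%). The 100 highest genes took a median of 22.7% of all TPM, from 14.9% in heterozygous replicate 3 to 24.9% in wildtype replicate 1. Of the 100 genes 36 encode cytosolic ribosomal proteins, 10 are mitochondrially encoded, 6 are annotated pseudogenes and 1, Dazl, belongs to a germline list. Of the 100, 87 were also among the 100 highest of the deficient libraries.

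**Figure D1:**
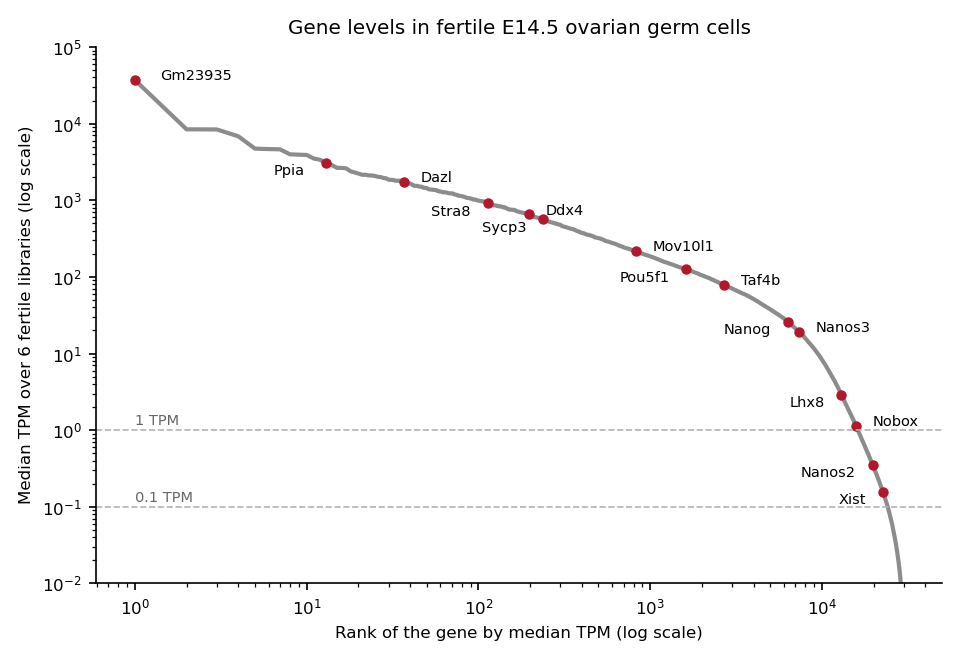
Median TPM over the 6 fertile libraries (vertical axis, log scale) against the rank of each gene (horizontal axis, log scale), with named genes as red points and the levels of 1 and 0.1 TPM as dashed lines. Dazl (1742 TPM) lies among the 100 highest genes, Taf4b (77.8 TPM) at rank 2706, and Nanos2 and Xist fall under 1 TPM.

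The highest entry of all was Gm23935, annotated as a microRNA gene of 57 bases on chromosome 16, within Zc3h7a on the opposite strand. It is 1 of 11 listed gene models that resemble ribosomal RNA. It stood between 34543 and 39170 TPM in 5 libraries and at 791 TPM in heterozygous replicate 3. CT010467.1, which overlaps the ribosomal RNA-like genes Gm42418 and AY036118, showed the same library apart, with 556 TPM there and 4318 to 5017 TPM in the others. The mitochondrial genes mt-Co3 (cytochrome oxidase subunit 3, median 8425 TPM), mt-Co1 (6841), mt-Cytb (3974), mt-Co2 (3931) and mt-Nd1 (3510) came next. Heterozygous replicate 3 was again the lowest library for each of these 5, for example 3183 TPM of mt-Co3 against 8393 to 9743 in the other 5. The pseudogenes Gm28437 (8397 TPM), Gm29216 (4718), Gm10925 (4622) and Gm28661 (3900) on chromosome 1 had values close to those of mitochondrial genes, and reads shared between near-identical copies make both uncertain. TPM computed from the deposited counts gave mt-Co3 664 and Gm28437 706, while mt-Co1 stayed at 7227. The small RNA genes Gm26377 (2648 TPM), inside Eef1a1, and Gm27597 (2388 TPM), inside Rpl19, were listed among the 25 highest and had no counted reads, so their TPM cannot be told apart from that of the genes around them.

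Among nuclear protein-coding genes the highest were housekeeping genes. Ppia, the prolyl isomerase cyclophilin A, stood at 2396, 3057 and 3717 TPM as lowest, median and highest. Atp5b, a subunit of mitochondrial ATP synthase, had a median of 2885 TPM, the translation factor Eef1a1 one of 2643 and the ribosomal protein Rpl32 one of 2613. Also among the 25 highest entries were Rpl13 (2306), the cytokine Mif (2152), the chaperone Hsp90aa1 (2149), the ubiquitin gene Ubb (2110) and Rplp1 (2075). Ubb was highest in heterozygous replicate 3, at 3747 TPM against 1919 to 2267 in the other 5 libraries. Of 89 cytosolic ribosomal protein genes 88 were expressed and 80 reached 100 TPM. Their summed level ran from 61452 TPM in heterozygous replicate 3 to 93162 TPM in wildtype replicate 1. TPM from counts gave Ppia 1356 and Rpl13 937, less than the deposited values, and both genes have many processed copies.

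Dazl, which binds germ cell messenger RNAs and promotes their translation, was the highest germline gene and ranked 20th among nuclear protein-coding genes. It stood at 1490 TPM in the lowest library, 1742 at the median and 2003 in the highest. Ddx4, the vasa helicase, stood at 415, 652 and 714 TPM, and Mael, a piRNA pathway protein, at 268, 523 and 675. Heterozygous replicate 1 was the lowest of the 6 libraries for all 3 genes, though for Dazl the libraries spread by an SD of only 0.15 on the log2(TPM + 1) scale. Of the 22 germline RNA regulators 20 were expressed and 7 reached 100 TPM, among them the helicase Mov10l1 (median 216 TPM), the polyadenylation factor Cpeb1 (172) and Meioc (171), which keeps germ cells in meiotic prophase. Nanos3, which protects primordial germ cells, had a median of 19.3 TPM and was highest in heterozygous replicate 1 (29.3 TPM). Its relative Nanos2, which directs the male germline, stood between 0.186 and 0.73 TPM with a median of 3.5 reads. The RNA-binding protein Msi1 (median 0.205 TPM) was the other member under 1 TPM, while its paralogue Msi2 stood at 4.86.

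Pluripotency and early germ cell factors were still present, over a wide range of levels. Of 25 listed genes 22 were expressed and 7 reached 100 TPM. Dppa3, which protects methylation in the zygote, led with 501, 966 and 1323 TPM as lowest, median and highest, followed by Dppa5a with 445, 754 and 1173. Pou5f1, whose regulatory sequence drives the sorting reporter, stood at 83.4, 125 and 256 TPM. Sall4 (median 130 TPM) and Tfap2c (30.2) are factors that establish the germline. Prdm1 (28.7), Nanog (26.1), Sox2 (23.9) and Prdm14 (22.6) had lower medians, Klf4 one of 2.71, and Sox17, Fgf4 and Tdgf1 lay under 1 TPM. The ranges of Nanog (12 to 70.8 TPM) and Sox2 (13.7 to 54.7 TPM) overlapped, and that of Pou5f1 lay above both.

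The genes of meiotic entry were led by Stra8, with 294 TPM in heterozygous replicate 1, a median of 908 and 1272 TPM in heterozygous replicate 2. Of the targets of bone morphogenetic protein signalling, Id3 stood at 413, 499 and 737 TPM. The medians of Id1, Msx1 and Msx2 were 195, 133 and 59.2 TPM. The type I receptor Bmpr1a stood at a median of 63.3 TPM while Bmpr1b was absent at 0.0324. Among the transducers Smad5 (37.6) lay above Smad1 (12.6) and Smad9 (1.89). On the retinoic acid side, the binding protein Crabp1 stood at 107 TPM, Crabp2 at 35.5, and the receptors at 29.0 for Rara, 5.74 for Rarg and 1.82 for Rarb. Cyp26b1 and Cyp26a1, which degrade retinoic acid, stood at 1.46 and 0.692 TPM. In all 23 of 25 listed genes were expressed. Rec8, the meiotic cohesin subunit, had a median of 213 TPM. Zglp1, a factor of oogenic fate, was listed at 1.32 TPM with a median of 1 read, and Meiosin was not found under that symbol in the table.

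**Figure D2:**
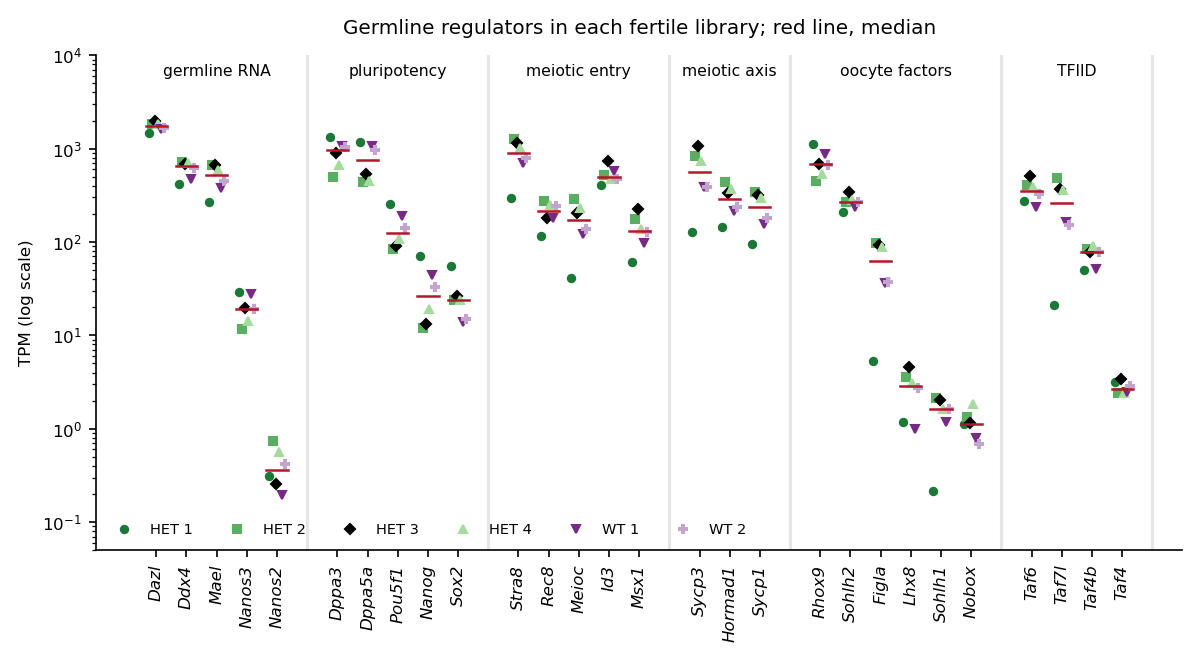
TPM (vertical axis, log scale) of germline regulators in each of the 6 fertile libraries, grouped by role; each symbol is 1 library (HET, heterozygous; WT, wildtype) and the red line is the median. Heterozygous replicate 1 (dark green circles) is the lowest library for Stra8, Meioc, Sycp3, Figla and Taf7l and the highest for Pou5f1, Nanog and Sox2.

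Chromosome axis and synaptonemal complex genes, which build the paired meiotic chromosome, were expressed in 16 of 17 cases, 11 of them at 100 TPM or more. Sycp3 stood at 127, 564 and 1071 TPM as lowest, median and highest, the cohesin subunit Stag3 at 309, 499 and 668, Syce2 at 307, 369 and 547, and Tex12 at 62.6, 309 and 532. At the low end, the cohesin Rad21l had a median of 7.47 TPM and Sycp2l one of 0.0833. All 31 measured recombination genes were expressed, with medians from 7.27 TPM (Rad51ap2) to 442 (Zcwpw1, a reader of the PRDM9 mark). The meiotic recombinase Dmc1 had a median of 55.9 TPM, and Spo11, which makes the breaks that start recombination, one of 31.3. Prdm9, which places them, stood at 3.77, 55.2 and 106 TPM. All 10 genes that tether meiotic telomeres to the nuclear envelope were expressed as well; Terf1, also a telomere protein of dividing cells, led with 214 TPM and Terb1, Spdya and Majin stood between 54.5 and 54.6.

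Of 25 genes on the piRNA pathway list 24 were expressed and 13 reached 100 TPM. The highest on this list were the cochaperone Fkbp6 (606, 868 and 1241 TPM), Tex101 (100, 690 and 1205), and Ddx4 and Mael, given above. Tex101 is also on the list of spermatid and male germ cell genes. Tex101 encodes a germ cell surface protein and is best known from the testis, where it is also a marker. The counts of the piRNA list include it, and a part of Tex101 in the pathway was not tested. Of the PIWI proteins themselves, Piwil2 stood at 145, 175 and 204 TPM, Piwil4 at a median of 5.86 and Piwil1 at 1.58. Tdrd6 was absent, with a highest value of 0.0905 TPM.

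Of 16 oocyte transcription factors 15 were expressed, 11 at 10 TPM or more and 5 at 100 or more. The homeobox genes Rhox9 and Rhox6 had medians of 678 and 396 TPM, and Sohlh2 stood at 208, 269 and 345. Figla, which activates the egg coat genes later in development, spread widely, from 5.33 TPM in heterozygous replicate 1 to 98.2 in heterozygous replicate 2, around a median of 62.6. Lhx8 (median 2.89 TPM), Sohlh1 (1.63) and Nobox (1.13), which act in primordial follicle formation, were near the level called expressed. The order Lhx8, Sohlh1, Nobox is not resolved by these libraries, since their ranges overlapped. Of 20 genes of oocyte growth, 2 were expressed, Ooep (5.33 TPM) and Khdc3 (2.60), both of the subcortical maternal complex. The others included Gdf9 (0.456 TPM, 13 reads), the egg coat genes Zp3 (0.307) and Zp1 (0.263), and Zp2, Bmp15 and Oosp1, whose medians were 0.

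TFIID, which binds core promoters and recruits RNA polymerase II, was represented by 19 of 20 listed genes. Taf6 had the highest median, 356 TPM, but TPM from counts gave 133. Taf7l, the X-linked germ cell paralogue of Taf7, stood at 21.3, 263 and 490 TPM, and Taf7 itself at 32.1, 39.5 and 57.7, so that these ranges overlapped. Taf4b (median 77.8 TPM) lay above its broadly expressed paralogue Taf4, which stood at 2.38, 2.64 and 3.40 TPM, and the ranges of this pair did not overlap. The TATA-binding protein Tbp had a median of 32.1 TPM and its relative Tbpl1 one of 29.3, whereas Tbpl2, the form of growing oocytes, was listed at 0 in all 6 libraries.

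Chromatin and cell cycle genes were measured in the same way. All 25 Polycomb and H3K9 methylation genes were expressed, from 10.9 TPM (Rybp) to 750 TPM (Rbbp7, a histone chaperone on the X chromosome), with Trim28 at a median of 238 and Ezh2 at 108. Of 14 DNA methylation genes 9 were expressed: Dnmt1, which maintains methylation, stood at 177, 199 and 219 TPM, the hydroxylase Tet1 at a median of 43.5, Dnmt3a at 24, Dnmt3b at 8.57, and Dnmt3l at 0. Of 32 cyclins and cell cycle kinases 31 were expressed, with Ccnb2 (539 TPM) and Cdc20 (491), genes of mitosis, the highest and Cdkn1b (0.442) the lowest. Of 35 imprinted genes 27 were expressed, led by Phlda2 (467 TPM) and Snrpn (119). Among 40 receptors Epcam (193) and Itgb1 (190) were high, and of 36 ligands 4 reached 10 TPM, led by Pdgfa (30.4) and Gdf3 (15.8).

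**Figure D3:**
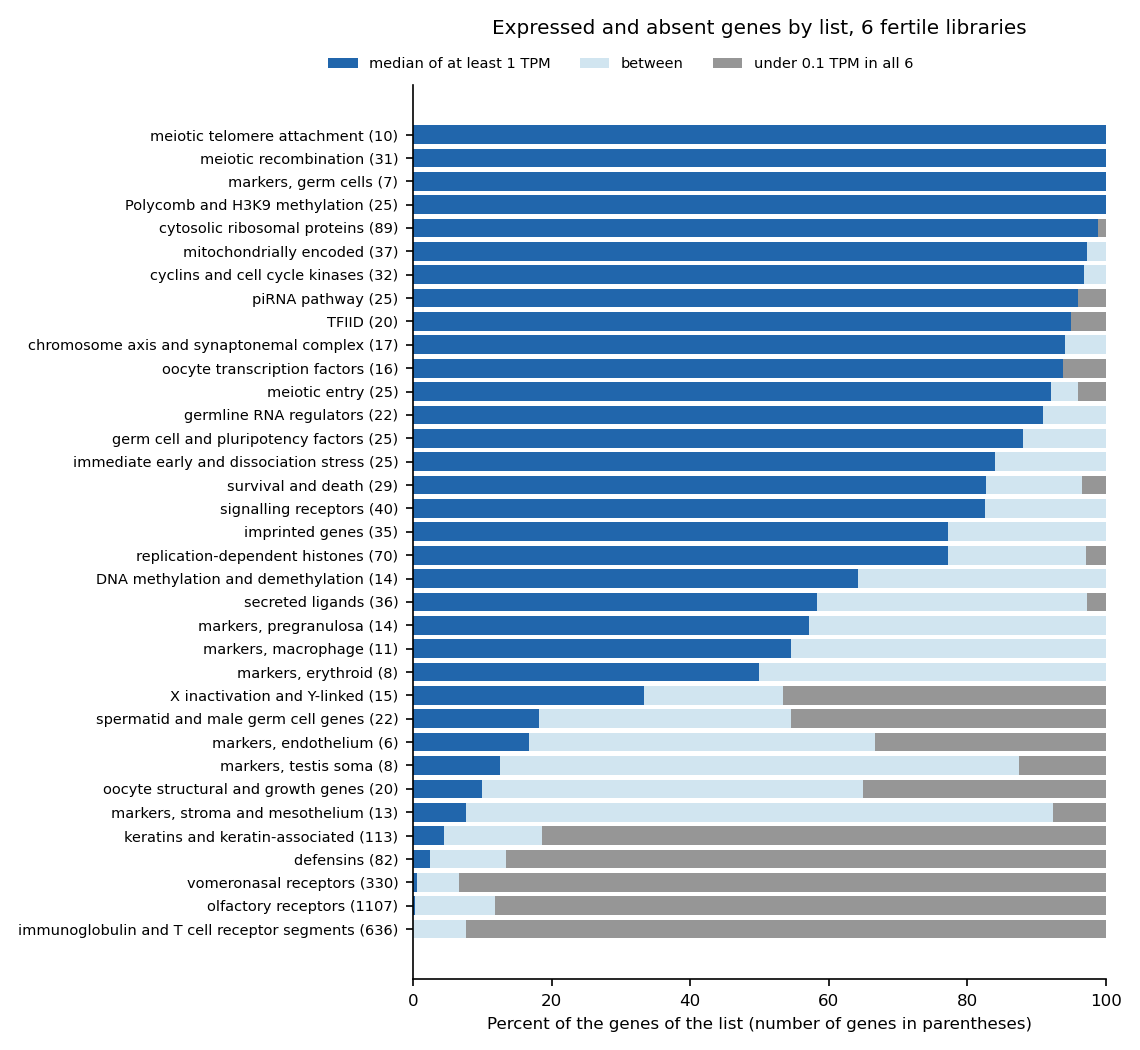
Share of the genes of each list (horizontal axis, percent) that had a median of at least 1 TPM (dark blue), that were under 0.1 TPM in all 6 fertile libraries (grey), or that lay between (light blue), with the number of genes in parentheses. Meiotic, piRNA and TFIID lists are nearly all dark blue, and olfactory receptors, vomeronasal receptors, keratins, defensins and immune segments are mostly grey.

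Absent genes, under 0.1 TPM in every one of the 6 libraries, numbered 24492 (44.1%), and 17031 of them were listed at exactly 0 throughout. Among protein-coding genes 5349 were absent (24.3%). Of the absent genes 16032 had no counted read in any of the 6 libraries and 113 had 10 or more in at least 1. In the deficient libraries, which had no part in the choice, 93.7% of the absent genes were again under 0.1 TPM in all 4, and 0 reached a median of 1 TPM. Just inside the limit among listed genes lay Acr (highest value 0.0878 TPM) and Tdrd6 (0.0905), and just outside it Spata3 (0.103) and Obox5 (0.114).

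Among the absent genes 5061 were processed pseudogenes and 4012 long intergenic noncoding RNAs. Several protein families were mostly absent. Of 1107 olfactory receptor genes 976 were absent and 3 were expressed, Olfr316 at 8.15 TPM, Olfr482 at 2.55 and Olfr77 at 1.71. Absent were also 308 of 330 vomeronasal receptor genes, 587 of 636 immunoglobulin and T cell receptor segments and 71 of 82 defensins. Among keratins and keratin-associated genes 92 of 113 were absent, and the exceptions were led by the simple epithelial pair Krt18 (48.3 TPM) and Krt8 (9.34). Of 22 spermatid and male germ cell genes 10 were absent (45.5%), near the 44.1% of all genes and above the 24.3% of protein-coding genes. Of the 22, 4 were expressed: Tex101, given above, the lactate dehydrogenase Ldhc (8.57 TPM), Piwil4 and the kinase Tssk6 (2.95). Of 183 protein-coding genes on the Y chromosome 180 were absent and 1 was expressed, the multi-copy Gm47283 (63.0 TPM), whose reads can come from related copies elsewhere. Sry, Eif2s3y, Zfy1 and Zfy2 were listed at 0 in all 6. Xist, which coats an inactive X chromosome, had a median of 0.156 TPM and a highest value of 0.286. Of 948 X-linked protein-coding genes 508 were expressed (53.6%), against 57.3% of 20807 autosomal ones. The median level of expressed X-linked genes was 0.911 of the autosomal median across libraries, from 0.748 in heterozygous replicate 1 to 1.02 in wildtype replicate 1.

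Markers of other ovarian cells were low. The 14 pregranulosa markers summed to 16.1 to 48.6 TPM, with Rspo1 the highest at a median of 6.68 and the defining Foxl2 at 0.249. The 13 stroma and mesothelium markers summed to 3.35 to 6.27 TPM, the 11 macrophage markers to 7.97 to 20.3 and the 8 testis soma markers to 2.15 to 3.13, where Amh had a median of 0. Of 6 endothelial markers Pecam1, which germ cells also carry, stood at a median of 68.2 TPM, and Cdh5 and Emcn at 0.0153 and 0. The 8 erythroid markers summed to 47.3 to 82.3 TPM in 4 libraries and to 3.87 and 8.49 TPM in heterozygous replicates 3 and 4. In bulk samples fewer cells of a type and less RNA per cell cannot be told apart.

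Variation between the 6 libraries was measured as the SD of log2(TPM + 1) over the 11447 genes with a median of at least 5 TPM. The median SD was 0.31, and 321 genes (2.80%) reached an SD of 1, the level called variable. Without heterozygous replicate 1, 208 of the 321 reached it again, and without wildtype replicate 1, 209. Egr1, Btbd1 and Lrp6 lay just under it at 0.997 to 0.998, and Syce3, Gm4786 and Whamm just over it at 1.001 to 1.002. In the deficient libraries, which did not choose them, 141 of the 321 genes (43.9%) again had an SD of at least 1, against 33 of the other genes of 5 TPM or more (0.297%). Across genes the SDs in the fertile and in the deficient libraries had a Pearson r of 0.76 and a Spearman rho of 0.63; this is a description, since genes are not independent and the libraries share their processing.

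**Figure D4:**
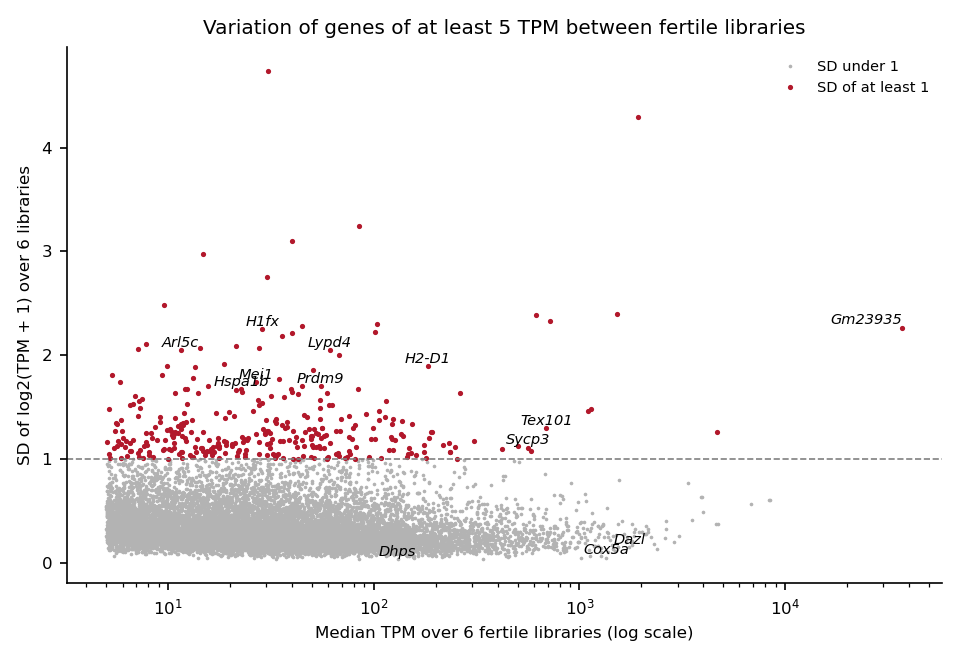
SD of log2(TPM + 1) over the 6 fertile libraries (vertical axis) against median TPM (horizontal axis, log scale); each point is 1 of 11447 genes and red points are the 321 with an SD of at least 1. Dhps and Cox5a lie at the bottom, Dazl low at high level, and Sycp3, Tex101 and H2-D1 above the line.

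Among the least variable genes with an assigned symbol were housekeeping genes of many functions. Dhps, which makes the hypusine residue of a translation factor, stood between 129 and 136 TPM (SD 0.04), the chaperone Dnaja2 between 330 and 349, and the condensin subunit Ncapg between 151 and 165. The cytochrome oxidase subunits Cox6a1 (981 to 1066 TPM) and Cox5a (1263 to 1387) and the endoplasmic reticulum chaperone Calr (426 to 476) were as even at high level. Against 2.80% of all genes, 0 of 87 ribosomal protein genes and 0 of 25 Polycomb and H3K9 methylation genes were variable; for a list of 25, 0 is near that share. Variable were 12 of 31 recombination genes, 4 of 16 axis genes, 4 of 10 telomere attachment genes, 2 of 18 TFIID genes and 3 of 3 erythroid genes of at least 5 TPM.

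The 12 variable recombination genes had 1 order in common. Mei1, needed for break formation, stood at 1.16 TPM in heterozygous replicate 1, at 11.2 and 13.4 in the wildtype libraries, and at 39.9 to 53.4 in heterozygous replicates 2 to 4. Prdm9 stood at 3.77 TPM, at 24.1 and 29.8, and at 80.6 to 106 in the same 3 sets of libraries, and the recombination factor Spata22 at 2.30, at 19.3 and 24.4, and at 55.0 to 74.3. Of 31 recombination genes, 26 had their lowest value in heterozygous replicate 1 (all genes of at least 5 TPM 28.2%), and 20 had the whole order, with both wildtype libraries between it and the 3 others (all genes 15.2%). Of 16 axis genes 14 and 12 did so, and of 23 genes on the piRNA list, Tex101 among them, 16 and 12. The order was chosen after these values were seen. The middle set is the wildtype genotype, and both outer sets are heterozygous. Heterozygous replicates 1, 2 and 3 share genotype and litter date. Whether either has a part in the order was not tested.

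Pluripotency factors stood in the opposite order. All 20 of the listed factors with a median of at least 5 TPM had their highest value in heterozygous replicate 1 (all genes 18.5%), and 17 of the 20 had both wildtype libraries between it and heterozygous replicates 2 to 4 (all genes 7.16%). Nanog stood at 70.8 TPM in heterozygous replicate 1, at 33.0 and 44.1 in the wildtype libraries and at 12 to 19.3 in the others, and Dppa2 at 96.2, at 54.7 and 74.6, and at 27.3 to 44. Summed over the list these factors reached 4561 TPM in heterozygous replicate 1, 3368 and 3715 in the wildtype libraries and 1783 to 2371 in the rest. Recombination genes summed to 1122, to 1578 and 1741, and to 2552 to 3037 TPM in the same sets. Polycomb and H3K9 methylation genes, by contrast, summed to between 2589 and 3127 TPM in all 6.

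The deficient libraries were ranked in the same way on these lists. Deficient replicate 3 was the lowest of the 4 in 24 of the 31 recombination genes and 14 of the 16 axis genes (all genes 39.2%), and the highest in 17 of the 20 pluripotency factors (all genes 24.5%). Of the 114 variable genes that were lowest in heterozygous replicate 1, 104 (91.2%) were lowest in deficient replicate 3. Of the 31 variable genes highest in heterozygous replicate 1, 7 (22.6%) were highest in deficient replicate 3, near the share of all genes. Recombination genes summed to 1172 TPM in the lowest deficient library, close to the 1122 TPM of heterozygous replicate 1, and to 1989 in the highest.

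Genes outside meiosis varied with these libraries too. H2-D1, a classical class I histocompatibility gene, stood at 9.68 TPM in heterozygous replicate 1, at 58.8 and 103 in the wildtype libraries and at 261 to 307 in the other heterozygous ones, and H2-Ab1, a class II gene, at 2.53, at 17.3 and 29.2, and at 59.8 to 86.9. Tex101, the surface protein Lypd4 (1.77, then 33.1 and 35.3, then 86.7 to 119 TPM) and Taf7l had the same order. Macrophages are another cell type that carries class II genes. Their 11 markers summed to 8.87, 16.2, 7.97 and 14.8 TPM in heterozygous replicates 1 to 4. In wildtype replicates 1 and 2 they summed to 20.3 and 20.1 TPM. H2-Ab1 stood at 2.53, 86.9, 61.1 and 59.8 TPM in heterozygous replicates 1 to 4 and at 29.2 and 17.3 in the wildtype libraries. The part of macrophages in H2-Ab1 was not tested.

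Both wildtype libraries lay below all 4 heterozygous ones in 121 of the 321 variable genes (all genes of at least 5 TPM 11.3%), and above all 4 in 13 (all genes 7.06%). Some of the 121 also divided within the deficient genotype. Ythdf1 was chosen after its values were seen. It stood at 59.6 and 61.7 TPM in deficient replicates 1 and 3 and at 167 and 181 in 2 and 4. Its wildtype values were 33.3 and 59.8 TPM and its heterozygous ones 167 to 193. Deficient replicates 1 and 2 share the January 29 date. The ribosomal RNA-like Gm23935 took 3.37% and 3.14% of TPM in deficient replicates 1 and 3, and 0.363% and 0.118% in 2 and 4. Among the fertile libraries it took 0.0791% in heterozygous replicate 3 and 3.45% to 3.92% in the others. A link to the split of Ythdf1 was not tested. Cul3 stood at 25.5 to 31.8 TPM in the deficient libraries, without this split. Such genes were not counted. H1fx, a linker histone, stood at 0 and 3.41 TPM in the wildtype libraries and at 24.1 to 49.9 TPM in the heterozygous ones. No fertile library had fewer than 57 counted reads of H1fx, so its 0 TPM is not an absence of reads. Its SD was 1.17 from counts against 2.25 from the deposited TPM. In the deficient libraries H1fx stood at 6.12 to 20.6 TPM. Over the 120 of the 121 genes that had a value, the median GC content was 53.9%, against 49.4% over all. In edgeR 1 gene was called between heterozygous and wildtype libraries (0.00492%), the pseudogene Gm8226 at -2.59 (SE 0.29, adjusted p = 0.0465), with 1686 genes at an unadjusted p under 0.05. Leaving out any 1 of the fertile libraries gave 0 called genes. Neither wildtype library shares the March 7 date of heterozygous replicates 1 to 3, so genotype and litter date cannot be told apart for those libraries. Heterozygous replicate 4 and wildtype replicate 1 share January 29. Their order in the 121 genes follows from how these genes were chosen. With 1 library of each genotype on that date, the difference within it was not tested.

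The 3 fertile libraries of March 7 lay above the other 3 in 29 of the 321 variable genes (all genes 2.96%), and in each of the 29 the deficient library of that date, replicate 4, was the highest of its 4 (all genes 33.3%). They lay below the other 3 in 2 variable genes (all genes 2.20%), and in 0 of these was deficient replicate 4 the lowest. Of the 29 genes, 28 are also among the 121 with both wildtype libraries lowest, so nearly all genes divided by date are also divided by genotype. Most of the 121 are not among the 29. The exception, Arl5c, had at least 178 counted reads in every fertile library. Its SD was 0.54 from counts against 2.05 from the deposited TPM. Agap1, 1 of the 28, was chosen after its values were seen. There heterozygous replicate 4 of January 29 stood at 48.6 TPM beside 51.4 to 59.7 in the March 7 libraries. The wildtype libraries stood at 7.85 and 11.9. Hspa1b, a heat shock protein induced by stress, stood at 37.0 to 54.1 TPM in these fertile libraries and at 3.27 to 8.13 in the others, and at 58.0 TPM in deficient replicate 4. Hspa1a had 20.7 to 32.2 against 1.53 to 3.51 TPM. The median GC content of the 29 genes was 57.3%. The immediate early gene Fos stood at 181, 90.3 and 161 TPM in the libraries of March 7 and at 66.9, 140 and 70.0 in heterozygous replicate 4 and the wildtype libraries, so that the sets overlapped.

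**Figure D5:**
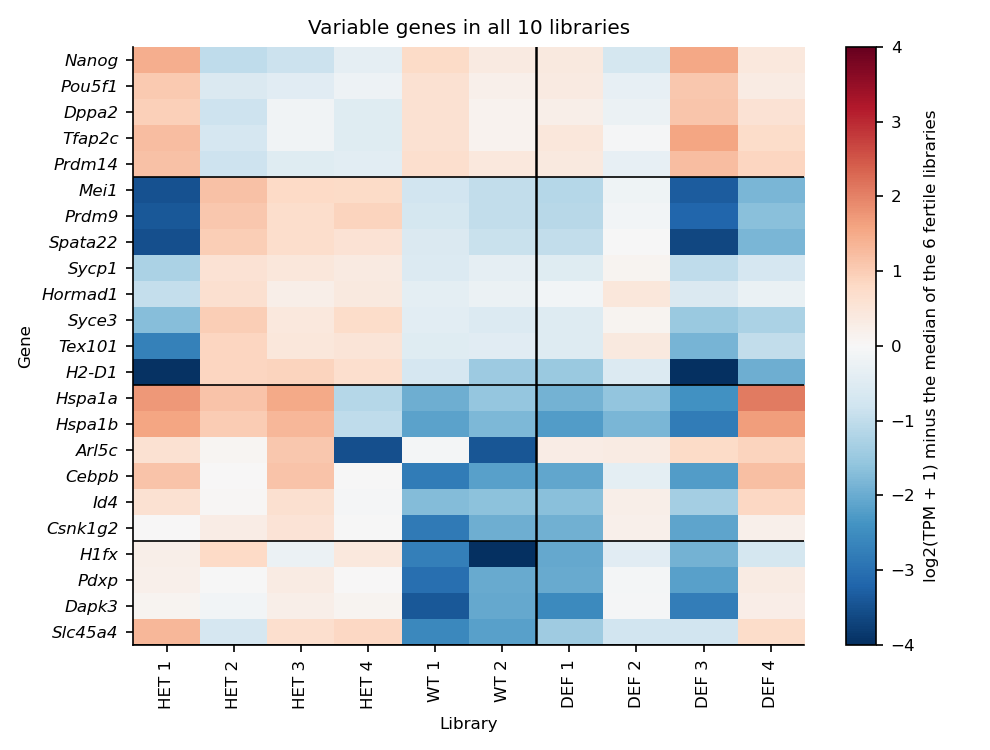
Difference of log2(TPM + 1) from the median of the 6 fertile libraries (colour) for variable and related genes (rows) in the 10 libraries (columns; HET, heterozygous; WT, wildtype; DEF, deficient), with lines between pluripotency genes, meiotic genes and those of the same order, genes high on March 7, and genes low in wildtype. HET 1 and DEF 3 are red for pluripotency genes and blue for meiotic genes, and DEF 4 is red for Hspa1a and Hspa1b. DEF 1 and DEF 3 are blue, as both WT libraries are, for Pdxp and Dapk3.

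Part of the variation lies in genes that the 2 deposited tables treat differently. Of the 321 variable genes 34 had a median of fewer than 10 counted reads, and 237 also had an SD of at least 1 when TPM was computed from the counts. Leaving out predicted genes with Gm or accession names, 1 entry of Sept2 had the largest SD, 3.10. It had values from 0 to 92.3 TPM and no counted reads, and Mir8114 and Snora9 also had none. Another Sept2 entry overlaps it on the same strand, with 31 to 56 counted reads and an SD of 1.35. That entry stood at 71.8 and 46.6 TPM in heterozygous replicates 1 and 3, where the first stood at 0. In heterozygous replicate 4, where the first was highest, it stood at 6.00 TPM. The SD of the first entry is therefore not that of the gene as a whole. The ribosomal RNA-like Gm23935 and Mir6236, and also Gm15564, were lowest in heterozygous replicate 3. In that library mitochondrial genes took 1.64% of TPM, against 3.74% to 4.36% in the other 5. With the listed ribosomal RNA-like genes and the mitochondrial genes left out and TPM rescaled, 304 of the 321 genes were again variable. Gm15564 and CT010467.1 were not on that list and were kept.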

How the data were processed

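RNA was sequenced from 10 libraries of sorted fetal germ cells. The submitters' processing notes name Trim Galore 0.5.0 and FastQC 0.11.5 for reads, HISAT2 2.1.0 and SAMtools 1.9 for alignments, and GRCm38 as the build. Deposited by the authors were gene counts, for which these notes name featureCounts of Subread 1.6.2, and TPM values, for which they name StringTie 1.3.3b. The strand setting and annotation are not given in the sources used here. Without a stated strand setting, overlapping and antisense genes cannot be told apart. A deposited table of DESeq2 output was not used here.

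Levels are TPM as deposited. A gene was called expressed at a median of at least 1 TPM over the 6 fertile libraries, absent under 0.1 TPM in all 6, and variable at an SD of log2(TPM + 1) of at least 1 among genes with a median of at least 5 TPM. A TPM was also computed from the deposited counts and the exon lengths of GENCODE M21, in which all 55536 genes were found. Counts were tested with edgeR 4.0.16 in R 4.3.3 (quasi-likelihood, TMM, 3 genotype groups over 10 libraries, 20317 genes kept, Benjamini-Hochberg adjusted p under 0.05), for deficient against the mean of both fertile genotypes and for heterozygous against wildtype. limma 3.58.1 and DESeq2 1.42.0 served as alternatives. The test and the SD were tested on simulated data. Total counts limit the precision of low genes. Intervals were not computed for TPM.

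Named are the given markers, the 25 highest genes, the members of 5 lists (germline RNA regulators, pluripotency, meiotic entry, oocyte transcription factors, TFIID), up to 4 high and 2 low members of other lists, the 20 most and least variable genes with an assigned symbol, and genes at the thresholds. Other names, among them Spo11, Dmc1, Terb1, Spdya, Majin, Piwil2, Ezh2, Gdf9, Zp1, Zp3, Gm15564, Gm8226, Gm47283, Cebpb, Id4, Csnk1g2, Pdxp, Dapk3 and Slc45a4, were chosen after their values were seen. The members and lists were chosen with earlier results of these data known. Symbols not found in the table were Meiosin, Bhmg1, Iho1, Kash5 and Rn7sl1. Some genes that this rule takes are not reported here. Promoter windows come from RefSeq on GRCm38.p6. Replicate numbers did not pair libraries across genotypes, with correlations of same-numbered deviations from -0.42 to 0.38.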

Additional observations from a re-analysis of the deposited data

Results flagged for a closer look

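A search over 102 measures for 1 library lying apart from the other fertile ones (gap to the nearest over the whole range above 0.625) marked 13, where chance alone marks about 1 in 20. Heterozygous replicate 3 was low in the share of TPM in the 100 highest genes (14.9% against 21.9% to 24.9%), in mitochondrially encoded genes (1.64% against 3.74% to 4.36%) and in Gm23935 (0.0791% against 3.45% to 3.92%). It was also low in Lin28a (18.8 TPM, nearest 53.5), Msi2 (2.14, nearest 4.81) and Hsf2 (9.47, nearest 22.0). The same library was high in Rxra (13.6 TPM, nearest 7.12), Msx2 (77.5, nearest 61.7), Sub1 (372, nearest 279) and Taf8 (79.8, nearest 60). Heterozygous replicate 1 was high in Klf4 (4.70 TPM, nearest 2.94), Sox2 (54.7, nearest 26.1) and Trim71 (15.2, nearest 9.22).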

How the results depend on the processing

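The counts of expressed, absent and variable genes stayed within 1.5 times of their values under each other filter, pseudocount or scaling listed for them, apart from the exception given next. The share of TPM in the 100 highest genes was 37.3% when computed from counts and 17.8% without mitochondrial and listed ribosomal RNA-like genes. Over nuclear protein-coding genes alone, a scaling chosen after seeing the data, it was 16.6%, and this scaling also left 5035 absent genes. Leaving out each fertile library gave shares from 22.3% to 23.1%, 16073 to 16327 expressed, 24933 to 25561 absent and 270 to 399 variable genes; of the 321 variable genes, 208 were again variable without heterozygous replicate 1 and 209 without wildtype replicate 1, against 255 to 305 without any other. TPM from counts gave 324 variable genes, 227 of them shared with the 321, and moved 37 of 130 named genes by over 1.5 times, among them Sycp3 (353 TPM), Pou5f1 (66.9), Taf6 (133) and Rhox9 (379); Taf9 had 5 counted reads. For deficient against fertile libraries, leaving out 1 library gave 0 to 1 called genes, DESeq2 8, and limma at either pseudocount, with or without the filter, 0. For heterozygous against wildtype, leaving out 1 library gave 0 to 0 called genes, no filter 268, DESeq2 480, limma on log2(TPM + 0.1) 45, on log2(TPM + 1) 0 and without the filter 122. A replicate block gave 0 called genes in both comparisons, as did litter date as a term; the numbers do not pair the samples. For deficient against fertile, Taf4b kept its direction in each of these alternatives. Depth limits genes near 1 TPM: Nobox had a median of 39 reads and Sohlh1 35.5.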
